A study of Rattus norvegicus with 6 samples.

Results

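The nuclear-encoded subunits of respiratory chain complexes II, III and IV and of the ATP synthase, complex V, were examined in rat myocardium with and without ischemia. The members were the rows of the deposited gene table whose names were Sdha, Sdhb, Sdhc or Sdhd or began with Uqcr, with Cox4 to Cox8 or with Atp5. This gave 50 of the 32623 rows, with 4 in complex II, 9 in complex III, 20 in complex IV and 17 in complex V. RNA sequencing covered myocardial tissue of 3 sham rats and 3 ischemia rats. All animals were wild type and labelled male. For its ischemia and reperfusion model the paper gives anesthesia, ventilation and opening of the left chest. For sham rats it names a sham operation without these details. In the ischemia group a ligature closed the left anterior descending (LAD) artery, and the labels give 30 min for both groups. The strain, the age and the part of the heart that was sampled are not given in the sources used here, and the sources do not say what the sham operation left out. Total counts ranged from 68529126 to 79591989 per sample.

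These complexes sit in the inner membrane of the mitochondrion and carry out oxidative phosphorylation. Complex II passes electrons from succinate to ubiquinone, complex III passes them on to cytochrome c, and complex IV hands them to oxygen. Complexes III and IV pump protons, and complex V uses the proton gradient to make ATP. Complex II is built only from nuclear genes, whereas complexes III, IV and V also hold subunits encoded by the mitochondrial genome. Heart muscle relies on this pathway for most of its ATP, and without oxygen the flow of electrons stops at complex IV.

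Promoters of 40 members were found by symbol in RefSeq (build GRCr8). The 4 printed here were taken because they hold the motifs with which factors of mitochondrial biogenesis are known to bind, or because they contrast a muscle form with its general partner. Each run gives the 150 bases before the annotated start, with the searched motifs in capitals on either strand.
Atp5me, chr14:1464710-1464859, plus strand: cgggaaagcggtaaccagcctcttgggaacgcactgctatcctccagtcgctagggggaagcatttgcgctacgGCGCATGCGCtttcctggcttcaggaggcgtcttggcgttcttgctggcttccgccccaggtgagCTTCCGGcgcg
Sdhd, chr8:59850642-59850791, minus strand: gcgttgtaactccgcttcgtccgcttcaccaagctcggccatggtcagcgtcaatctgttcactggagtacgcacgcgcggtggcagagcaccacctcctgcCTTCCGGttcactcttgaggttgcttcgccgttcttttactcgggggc
Cox8a, chr1:213833624-213833773, minus strand: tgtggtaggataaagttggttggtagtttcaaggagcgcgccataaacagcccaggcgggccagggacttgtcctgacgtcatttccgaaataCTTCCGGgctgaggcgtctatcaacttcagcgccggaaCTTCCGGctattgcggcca
Cox8b, chr1:205408274-205408423, minus strand: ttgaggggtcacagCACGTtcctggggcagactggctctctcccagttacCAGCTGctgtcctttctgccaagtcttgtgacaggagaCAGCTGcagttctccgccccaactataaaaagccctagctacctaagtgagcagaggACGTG
The capitals mark the NRF1 motif (GCGCA, any base, then GCGC) and CCGGAAG (ETS factors, which include GABP) in Atp5me, CCGGAAG in Sdhd and in Cox8a, and ACGTG (the core of the hypoxia response element) and CAGCTG (a muscle E-box) in Cox8b. Over the 250 bases before the start, CCGGAAG was found in 11 of 40 member promoters (27.5%) against 7.27% of all 33469 promoters, and the NRF1 motif in 5 (12.5%) against 3.75%. AAGGTCA, the motif of estrogen-related receptors, was found in 5 (12.5%) against 3.99%, and AAGATGGC, the YY1 motif, in 2 (5.0%) against 1.63%. ACGTG was found in 11 (27.5%) against 16.6%, and CAGCTG in 6 (15.0%) against 12.0%. Both strands were searched for each, and no motif was tested for enrichment. Members with CCGGAAG had a median log2 fold change of -0.45 in ischemia against sham and members without it -0.44. With and without the motif, medians were -0.47 and -0.39 for NRF1, -0.32 and -0.45 for AAGGTCA, and -0.41 and -0.45 for AAGATGGC. They were -0.36 and -0.45 for ACGTG, and -0.30 and -0.45 for CAGCTG. None of these differences was tested. These are matches of letters and not measured binding sites.

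Differences between samples of 1 group bear on the members and are given first. Summed FPKM (fragments scaled to gene length and sequencing depth, which allows levels of different genes to be compared) of 5 atrial genes, led by Nppa, was 48344 and 39345 in sham replicates 1 and 3 but 216 in sham replicate 2, and 1279 to 9610 in ischemia. Neutrophil and monocyte genes summed to 113 to 200 in sham and to 1273, 8565 and 2030 in ischemia replicates 1 to 3, and 9 of the 10 tested passed the test upwards. The lung secretory gene Scgb1a1 had an FPKM of 394 in ischemia replicate 1, and the brown fat gene Ucp1 had 111 in sham replicate 3. Sham replicate 1 had 4 counts on the Y-linked genes Eif2s3y and Kdm5d together, where the other 5 samples had 1762 to 4310, although all are labelled male. The defining cardiomyocyte markers were abundant in all 6 samples, with a summed FPKM of 16390 to 52728 over 13 genes.

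The first question was which subunit genes differed between ischemic and sham myocardium. None of the 47 members that could be tested passed the threshold in edgeR's quasi-likelihood test with Benjamini-Hochberg adjustment, against 6.71% of all 13964 tested genes. The log2 fold change was below 0 in 47 of 47 members against 50.1% of all genes. The median was -0.36 for the members and -0.001 over all tested genes, with values by member from -2.08 to -0.14. With total-count scaling and with limma at a pseudocount of 0.1 or 1, 46 of 47 members lay below 0. The median of all genes was 0.088, 0.084 and 0.066 there. Cox6c-ps1, Cox7b2 and Cox8c had no counts in any sample and were not tested.

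At an unadjusted p under 0.05, 2 of the 47 members passed (4.26%) against 32.4% of all genes. These were Cox7a2l and Sdhd. DESeq2 called 1 member, Cox7a2l, against 27.3% of all genes. Limma on log2 FPKM called no member, against 7.96% of all genes with a pseudocount of 0.1 and 6.2% with a pseudocount of 1. In each, 3 of the 47 members had an unadjusted p under 0.05, against 4426 and 4337 of the 13964 genes. With quantile normalization in limma 10 members did, against 4725 of the 13964 genes. Samples with lower members were not spread evenly: FPKM was highest in sham replicate 2 for 39 of 47 members and lowest in ischemia replicate 2 for 44 of 47. Without sham replicate 2 the median log2 fold change was -0.11 (0.02 over all genes) and 15 members lay above 0. Without ischemia replicate 2 the median was -0.15 (-0.04 over all genes). These left-out samples moved the log2 fold change of 40 and 41 of the 47 members, respectively, by more than 1.5 times. Without sham replicate 1, the sample with hardly any Y-linked counts, the median was -0.52. No gene of the table passed in edgeR in that fit (0.0% of 13964; 3090 genes, 1 of them a member, had an unadjusted p under 0.05), so its 0 members say nothing about the members. Without ischemia replicate 1, the sample with the lung gene, the median was -0.58, and 32 of 47 members moved by more than 1.5 times. In that fit 1 member passed, against 18.7% of all genes. In bulk tissue, fewer cardiomyocytes and less RNA per cardiomyocyte cannot be told apart.

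**Figure D1:**
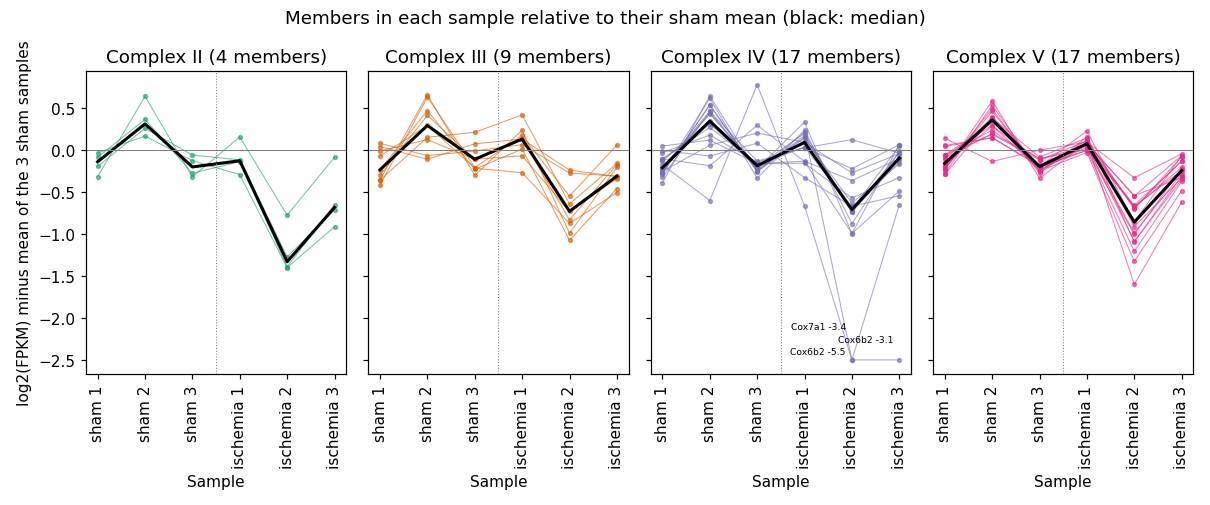
Each thin line is 1 member and joins its log2 FPKM in the 6 samples, minus its mean over the 3 sham samples, by complex, and the black line is the median of the complex. From replicate 1 to 3, medians over all members were -0.17, 0.34 and -0.19 for sham and 0.07, -0.74 and -0.21 for ischemia, and points below -2.5 are drawn at -2.5 with their value.

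In the by-sample plot most members were high together in sham replicate 2 and low together in ischemia replicate 2. Ischemia replicate 1 lay above sham replicates 1 and 3 in the median of each complex, and ischemia replicate 2 lay lowest. Counts on the members took 2.79% to 4.26% of each sham library and 1.67% to 3.37% of each ischemia library. Sham replicates 1 and 3, with the lower member levels, were also those with the high atrial sums, and ischemia replicate 2 had the highest myeloid sum; their part in the result was not tested. With both atrial-rich sham samples left out, the median log2 fold change was -0.90. The only sham sample kept was then replicate 2, which was already highest for most members and had the lowest atrial sum. High member levels and low atrial RNA in that sample cannot be told apart here. The spread in that fit came from the ischemia samples alone, and nothing is read from its test.

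All ischemia FPKM values lay below all sham values for 4 of 47 members (8.51%) against 15.0% of all tested genes. They lay above all sham values for 0 of 47 members against 23.6% of all tested genes. The 4 were Sdhd, Uqcrc2, Cox7a2l and Cox6b2. Leaving out a sample raised the share over all genes too, so each count is given with its own background. Without ischemia replicate 1 the count was 25 (53.2%) against 25.8% of all genes. Without sham replicate 3 it was 8 (17.0%) against 16.7%. It was 5 (10.6%) against 17.1% without sham replicate 1, and 5 (10.6%) against 26.8% without sham replicate 2. It was 4 (8.51%) without ischemia replicate 2 or 3, against 18.0% and 16.1%. With counts scaled by the trimmed mean of M-values it was 5 (10.6%) against 19.1%, and at a mean FPKM of at least 5 it was 3 of 45 (6.67%) against 14.5%.

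Complex II is succinate dehydrogenase, which is shared with the citric acid cycle. Its median log2 fold change was the lowest of the 4 complexes, at -0.76 over 4 members. Of these, 0 passed the test and 1 (25.0%) had an unadjusted p under 0.05, against 32.4% of all genes. Sdhd, a membrane anchor that helps to bind ubiquinone, had an FPKM of 382, 440 and 359 in sham and 320, 149 and 208 in ischemia. There was no overlap, and its log2 fold change was -0.90 ± 0.36 (SE, adjusted p = 0.146). Sdhd lies on the minus strand of chromosome 8, between 55028125 and 55037604 in the coordinates of the table, which names no build. Sdhb, which carries the iron-sulfur clusters and had the highest mean of the 4 over the 6 samples though not in every sample, had an FPKM of 366, 709 and 365 in sham and 507, 266 and 429 in ischemia. These ranges overlapped, and its log2 fold change was the highest of the complex at -0.39 ± 0.46 (SE, adjusted p = 0.574). Without sham replicate 2 it was 0.16.

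The other anchor, Sdhc, and the catalytic flavoprotein Sdha, which oxidizes succinate, lay between. Their log2 fold changes were -0.74 ± 0.39 and -0.77 ± 0.43 (SE), with adjusted p of 0.227 and 0.254 in edgeR. In ischemia replicate 2 the FPKM of Sdha was 161, against 349 to 544 in sham. Ischemia replicate 1, at 384, lay within the sham range.

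In complex III, the cytochrome bc1 complex, 0 of 9 members passed, and the median log2 fold change was -0.38. Uqcrc2, a core protein that holds the complex together, had an FPKM of 350, 451 and 317 in sham and 305, 201 and 259 in ischemia. It was the lowest of the complex at -0.66 ± 0.32 (SE, adjusted p = 0.206), without overlap between the groups. Uqcrh, the hinge protein at cytochrome c1, had the highest mean over the 6 samples (680, against 671 for Uqcrfs1, which was higher in sham replicate 2 and ischemia replicate 1), with 757, 831 and 706 in sham and 727, 460 and 602 in ischemia. Its log2 fold change was -0.45 ± 0.28 (SE, adjusted p = 0.297). Uqcr10, a small subunit, was the highest of the complex at -0.18 ± 0.36 (SE, adjusted p = 0.748), and lay at 0.01 without sham replicate 2 and at 0.07 without ischemia replicate 2.

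Uqcrfs1, the Rieske iron-sulfur protein that takes electrons from ubiquinol, had a log2 fold change of -0.60 ± 0.43 (SE, adjusted p = 0.358). Uqcrb stood in the table as 2 rows. The row on chromosome 7 ranged from 69.0 to 90.4 FPKM and the row on chromosome 1, where RefSeq lists a pseudogene, from 238 to 325, so reads of the copies may have been split. Both varied little, with the highest sample 1.31 and 1.36 times the lowest, against a median of 2.26 over the 47 members and 2.77 over all tested genes.

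**Figure D2:**
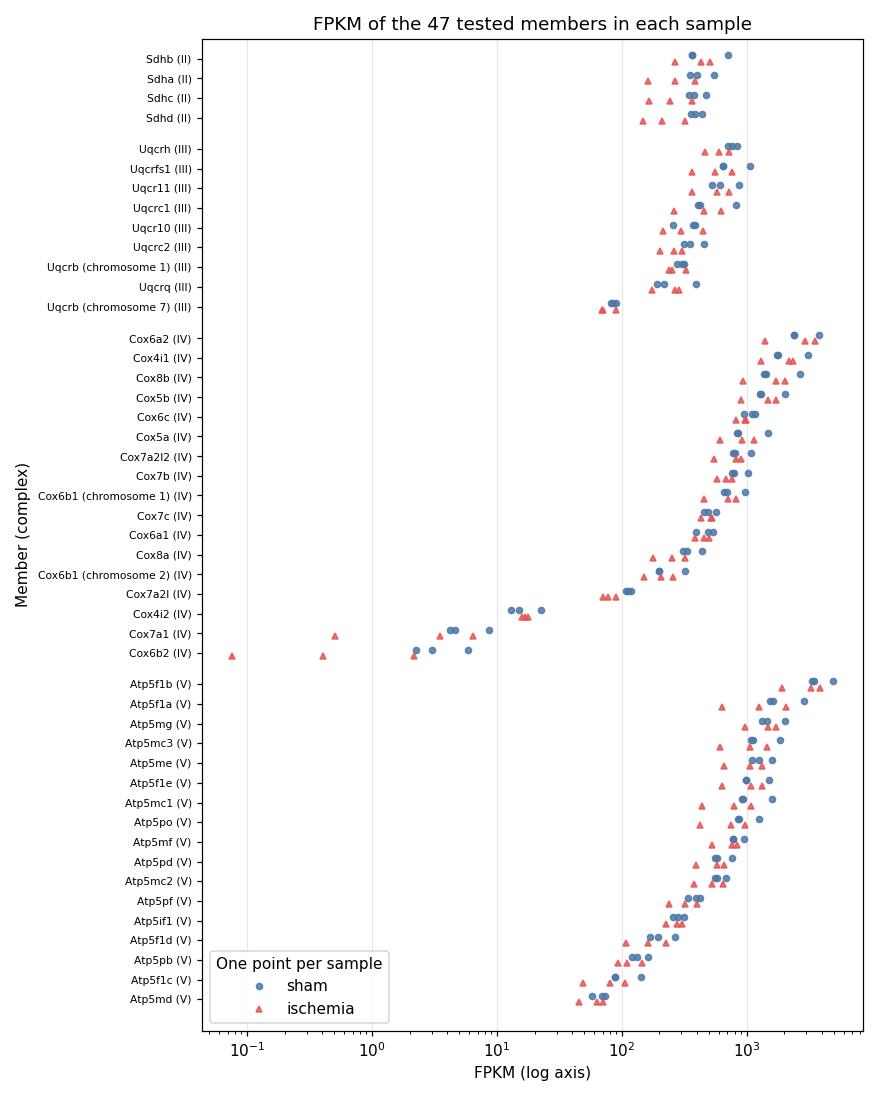
FPKM on a log axis of each tested member in the 3 sham (circles) and 3 ischemia (triangles) samples, ordered within each complex by mean level. The 4 most abundant complex IV members lay above every sample of Cox7a2l, Cox4i2, Cox7a1 and Cox6b2, and the circles and triangles overlapped except for Sdhd, Uqcrc2, Cox7a2l and Cox6b2.

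Complex IV, cytochrome c oxidase, had 17 tested members with a median log2 fold change of -0.34. Of these, 0 passed and 1 (5.88%) had an unadjusted p under 0.05, against 32.4% of all genes. Cox7a2l, which is known for joining complexes III and IV in supercomplexes, had an FPKM of 112, 107 and 119 in sham and 89.8, 70.9 and 77.4 in ischemia. All sham values lay close together and above every ischemia value. Its log2 fold change was -0.59 ± 0.19 (SE), and the adjusted p of 0.0973 in edgeR was the lowest of all members, whereas DESeq2 gave 0.0176. Leaving out 1 sample at a time gave -0.71 to -0.48. Cox7a2l lies on the minus strand of chromosome 6, between 6695827 and 6709783.

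Cox6b2, an isoform known from testis, had few counts, with 109, 86 and 200 counts in sham and 84, 3 and 14 in ischemia. It had the lowest log2 fold change of all members at -2.08 ± 1.07 (SE, adjusted p = 0.223), and this value rests on few counts. Leaving out 1 sample at a time gave -3.89 to -1.54. The value of -3.89 was that without ischemia replicate 1, where its adjusted p in edgeR was 0.0421, the only member to pass in that fit. Its general partner Cox6b1 on chromosome 1 had a log2 fold change of -0.33 ± 0.37 (SE), and a second row of that name on chromosome 2, where RefSeq lists a pseudogene, had -0.35 ± 0.37.

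Cox6a2, the heart and muscle form of subunit 6a, was the most abundant member of the complex, with an FPKM of 2403, 3760 and 2385 in sham and 3501, 1395 and 2909 in ischemia. Ischemia replicates 1 and 3 lay above sham replicates 1 and 3, and its log2 fold change was -0.24 ± 0.47 (SE, adjusted p = 0.741). The smallest difference in the complex was that of Cox4i2, the form of subunit 4 known to be induced by low oxygen in lung. Its FPKM was 13.04, 22.5 and 14.9 in sham and 16.6, 17.8 and 15.9 in ischemia, with a log2 fold change of -0.14 ± 0.32 (SE, adjusted p = 0.785). Its sign depended on the scaling: total-count scaling gave 0.002 and limma on FPKM 0.04.

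Subunits of complex IV that come in a muscle form and a general form, or in a low-oxygen form, were set against each other as FPKM ratios within each sample. The table has no row named Cox7a2; the row named Cox7a2l2 lies on chromosome 8, where RefSeq has Cox7a2, and was used in its place. The ratio of Cox4i2 to Cox4i1, the general form, was 0.0074, 0.0073 and 0.0084 in sham and 0.0071, 0.0137 and 0.0073 in ischemia, so 1 ischemia sample stood out. The ratio of Cox6a2 to Cox6a1 was 6.13, 7.72 and 4.43 in sham and 7.02, 3.60 and 6.401 in ischemia, and overlapped. The ratio of Cox8b, the muscle form of subunit 8, to Cox8a was 4.33, 8.50 and 3.15 in sham and 6.32, 5.28 and 6.77 in ischemia, where the ischemia values lay inside the sham range.

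The ratio of Cox7a1, the muscle form of subunit 7a, to the Cox7a2l2 row was 0.0052, 0.0079 and 0.0060 in sham and 0.0071, 0.00094 and 0.0042 in ischemia, lowest in ischemia replicate 2. The Cox7a1 row held only 0.51 to 8.60 FPKM. A second row, named LOC687508, carries in its name the RefSeq gene number of Cox7a1 and held 18.2 to 41.8 FPKM, so reads of Cox7a1 may have been split or lost, and this ratio is uncertain. The log2 fold changes of Cox7a1, of the Cox7a2l2 row and of Cox6a1 were -0.86 ± 0.87, -0.34 ± 0.34 and -0.17 ± 0.24 (SE). On the log2 scale the 4 ratios differed between ischemia and sham by 0.21, -0.12, 0.32 and -1.04 for Cox4i2, Cox6a2, Cox8b and Cox7a1. None was distinguishable from the spread between samples, with 2-sided exact permutation p of 1.0, 0.7, 0.6 and 0.3 and values adjusted over the 4 pairs of 0.933 to 1.0. With 3 samples against 3 such a test cannot give a p below 0.1.

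**Figure D3:**
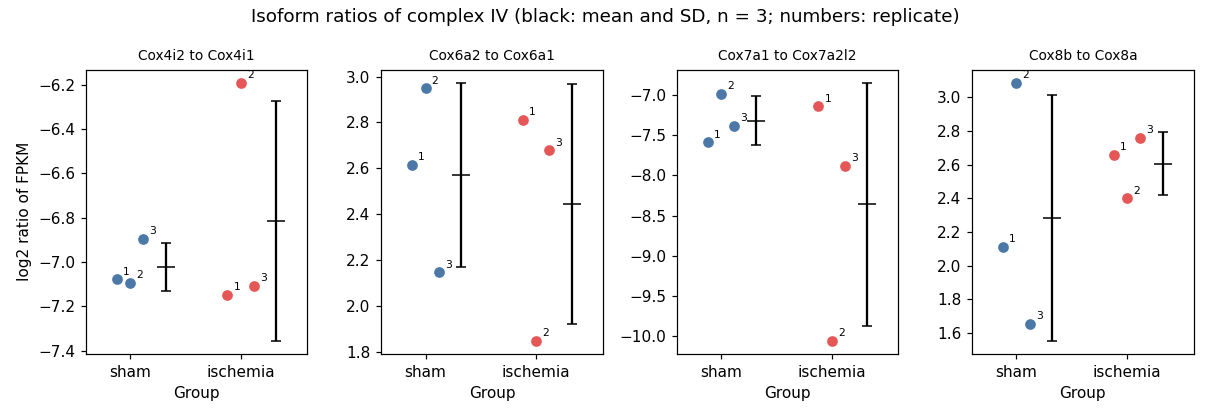
Log2 ratio of FPKM of a muscle or low-oxygen isoform to its partner in each sample of the 2 groups, with replicate numbers beside the points and the mean and SD (n = 3) in black. The groups overlap in all 4 panels, and ischemia replicate 2 stands apart in the Cox4i2 and Cox7a1 panels.

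Of the remaining complex IV members, the values ran from Cox7c at -0.15 ± 0.25 (SE) to Cox8a, and differences between members were not tested. Cox4i1, Cox5a and Cox5b, larger nuclear subunits that surround the catalytic core, had log2 fold changes of -0.29 ± 0.44, -0.36 ± 0.43 and -0.29 ± 0.41 (SE). Cox8a had -0.58 ± 0.28 and Cox8b -0.34 ± 0.48, with adjusted p of 0.203 and 0.639 in edgeR. Cox7c, Cox6a1 and Cox6c varied least over the 6 samples, with the highest sample 1.32, 1.39 and 1.40 times the lowest.

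Complex V had 17 members with a median log2 fold change of -0.36. Of these, 0 passed and 0 had an unadjusted p under 0.05, against 32.4% of all genes. Atp5f1b, the catalytic beta subunit, was the most abundant member of all, with an FPKM of 3433, 4940 and 3320 in sham and 3820, 1909 and 3284 in ischemia. Both groups overlapped, and the log2 fold change was -0.48 ± 0.44 (SE, adjusted p = 0.468). Atp5f1a, the alpha subunit that alternates with beta in the catalytic ring, had 1624, 2893 and 1524 in sham and 2056, 635 and 1253 in ischemia. Its log2 fold change was the lowest of the complex at -0.74 ± 0.57 (SE, adjusted p = 0.391), and its highest sample was 4.55 times its lowest. Without sham replicate 2 it was -0.22, where Atp5po lay slightly lower at -0.23, and without ischemia replicate 2 it was -0.39, level with Atp5mc1. Atp5if1, the inhibitor that stops complex V from splitting ATP when the proton gradient collapses, had 312, 258 and 283 in sham and 302, 225 and 274 in ischemia. It was the highest of the complex at -0.17 ± 0.21 (SE, adjusted p = 0.593), and unlike most members it was not highest in sham replicate 2.

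The genes Atp5mc1, Atp5mc2 and Atp5mc3 encode the same mature c subunit of the rotating ring. Their log2 fold changes were -0.69 ± 0.48, -0.33 ± 0.31 and -0.49 ± 0.46 (SE), and the differences between the 3 genes were not tested. Their highest sample was 3.62, 1.82 and 3.001 times their lowest. The peripheral stalk members Atp5po, Atp5pb, Atp5pd and Atp5pf, which keep the catalytic head from turning, ranged from -0.58 to -0.34. Atp5me, Atp5mf and Atp5mg, which help complex V to form dimers, ranged from -0.47 to -0.32. The Atp5md row lay on chromosome 10, where RefSeq does not place that gene, and had -0.26 ± 0.29 (SE). Another row, LOC100911417, was taken as a possible copy of Atp5pb and lies on the same strand of chromosome 2. It had 100 to 178 FPKM against 93.8 to 161 for Atp5pb itself. The sequences were not compared, and if they are alike the reads of this gene may have been split.

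**Figure D4:**
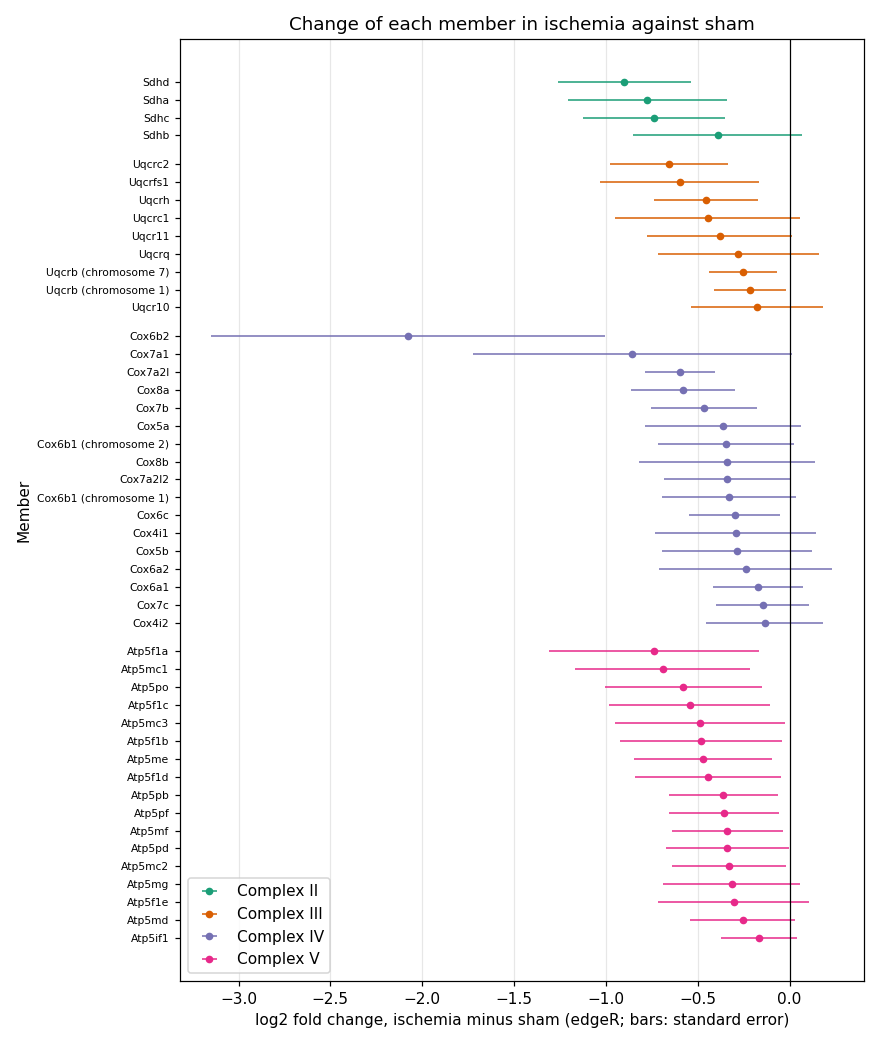
Log2 fold change of ischemia minus sham for each of the 47 tested members by complex, with the standard error as a bar, from edgeR. All points lie below 0, from -2.08 for Cox6b2 to -0.14 for Cox4i2.

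Gene length was related to these values as a description. Over the 47 members, which share the same 6 libraries, Spearman's rho between the length implied by counts and FPKM and the log2 fold change was -0.445, so longer members tended to lie lower. Over the 45 members with a mean FPKM of at least 5 it was -0.493, and over all 13964 tested genes -0.0714. With mean FPKM, rho over the members was 0.0491.

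Levels were then summed by complex. Summed FPKM of complex II was 1493, 2167 and 1453 in sham, and 1576, 740 and 1147 with ischemia. For complex III it was 3539, 5146 and 3703 against 4277, 2360 and 3317. For complex IV it was 12637, 19029 and 12593 against 15910, 8778 and 13948. For complex V it was 14736, 21345 and 14099 against 17131, 8319 and 13633. Ischemia replicate 1 exceeded sham replicates 1 and 3 in all 4 sums, so the groups overlapped. Mean sums in ischemia were 0.678, 0.803, 0.873 and 0.779 times those in sham for complexes II to V.

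The balance between the complexes showed a narrower spread than the sums. The ratio of complex II to complex V was 0.101, 0.102 and 0.103 in sham and 0.0920, 0.0890 and 0.0842 in ischemia. That of complex IV to complex V was 0.858, 0.892 and 0.893 in sham and 0.929, 1.06 and 1.02 in ischemia. In both ratios the groups did not overlap. The ratio of complex III to complex V overlapped, with 0.240 to 0.263 in sham and 0.243 to 0.284 in ischemia. These ratios were not tested, since the sums were chosen with earlier results known.

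**Figure D5:**
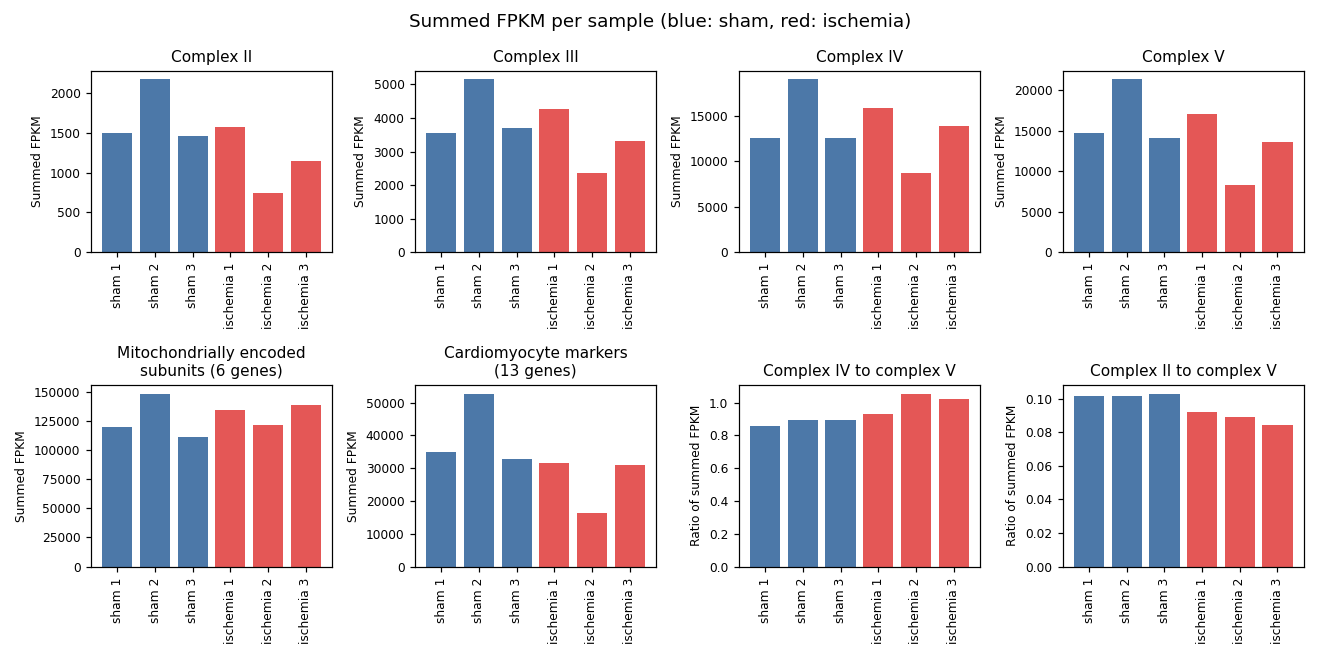
Bars give the FPKM of each sample summed over the members of each complex, over the 6 mitochondrially encoded subunits and over 13 cardiomyocyte markers, and the last 2 panels give ratios of sums between complexes. Sham replicate 2 is highest and ischemia replicate 2 lowest in each complex, whereas the mitochondrially encoded sum of ischemia replicate 2 lies within the sham range.

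The sums were also set against cardiomyocyte markers. Per 100 FPKM of the 13 markers, complex IV members had 36.1 to 38.3 FPKM in sham and 45.2 to 53.6 in ischemia, and complex V members 40.5 to 42.9 and 44.1 to 54.4. Complex II had 4.11 to 4.42 and 3.71 to 5.005, and complex III 9.76 to 11.3 and 10.7 to 14.4, which overlapped. Of the 13 markers, Actc1 and Myh6 encode actin and myosin of the heart's contractile filaments. They had log2 fold changes of -1.70 and -2.38, with adjusted p of 0.0535 and 0.0510 in edgeR. Against the other 11 markers, an alternative added after seeing the data, complex IV had 51.3 to 67.0 in sham and 55.1 to 67.1 in ischemia, and complex V 57.5 to 75.0 and 53.9 to 63.6. Complex II then had 5.84 to 7.73 in sham and 4.54 to 5.73 in ischemia.

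Subunits encoded by the mitochondrial genome were compared with their nuclear partners. The summed FPKM of the 6 genes was 119660, 148724 and 111135 in sham and 134793, 121299 and 139285 in ischemia. Ischemia replicate 2 thus lay within the sham range in this sum, although Mt-cyb and Mt-co1 were lowest in that sample, with an FPKM of 10597 and 39761. Of the 6, 0 passed the test and 2 lay below 0, with log2 fold changes from -0.25 ± 0.41 (SE) for Mt-cyb, the cytochrome b of complex III, to 0.20 ± 0.29 for Mt-atp6, the proton channel subunit of complex V. The ratio of mitochondrially to nuclear-encoded FPKM was 5.82 to 6.78 in sham and 6.01, 10.2 and 7.10 in ischemia for complex IV. For complex V it was 0.923 to 1.33 in sham and 1.36, 2.59 and 1.81 in ischemia, without overlap. For complex III it was 3.56 to 4.22 and 3.75 to 4.69.

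Other genes of the pathway were taken from lists. Of 4 other nuclear subunits and cytochrome c, 0 passed and 4 lay below 0, with a median of -0.70. The lowest was Dmac2l, which encodes a factor linked to complex V, with an FPKM of 12.7, 9.33 and 10.3 in sham and 5.94, 2.97 and 3.60 in ischemia. Its log2 fold change was -1.44 ± 0.32 (SE, adjusted p = 0.0504), just short of the threshold. The highest was Ndufa4, a subunit of complex IV despite its name, at -0.43 ± 0.34 (SE, adjusted p = 0.408). Of 33 tested assembly factors, which help to build complexes II to V, 0 passed and 29 lay below 0, with a median of -0.35. They ran from Lyrm7, a chaperone of the Rieske protein, at -1.30 ± 0.37 (SE, adjusted p = 0.0786), to Cox11, a copper chaperone of complex IV, at 0.23 ± 0.33 (SE, adjusted p = 0.646). Of 7 tested factors tied to low oxygen, 0 passed and 4 lay below 0, with a median of -0.06. They ran from Ndufa4l2 at -0.82 ± 0.33 (SE, adjusted p = 0.146) to Hif1a, the oxygen-sensitive transcription factor, at 2.03 ± 0.57 (SE, adjusted p = 0.0756). The FPKM of Hif1a was 10.46, 4.83 and 9.63 in sham and 15.2, 70.7 and 23.1 in ischemia, highest in the sample with the highest myeloid sum; the part of myeloid RNA in it was not tested.

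Marker lists of cell types were read from the same fit. Of 13 cardiomyocyte markers 0 passed and 11 lay below 0, with a median of -0.59, from Myh6 at -2.38 to Myh7, the slow heart myosin, at 0.86. Of 5 atrial genes 0 passed and 5 lay below 0, from Bmp10 at -7.50 to Nppa at -2.42. The 9 neutrophil and monocyte genes that passed belong to a list that ran from Cd68 at 2.17 to Mmp8 at 7.63. Of 6 smooth muscle and pericyte genes 1 passed, Abcc9, with a log2 fold change of -1.34 (adjusted p = 0.0351), and the list ran from Myh11 at -2.15 to Kcnj8 at -0.13. None of 6 endothelial genes (Emcn at -0.52 to Egfl7 at 0.64), 5 fibroblast genes (Lum at -2.70 to Pdgfra at -0.50), 4 fat cell genes (Ucp1 at -9.15 to Adipoq at -3.40), 2 tested skeletal muscle genes (Tnnt3 at -0.21 to Mylpf at -0.07) and 3 tested lung genes (Scgb1a1 at 4.70 to Sftpa1 at 11.64) passed. Summed FPKM of the endothelial list was 215 to 237 in sham and 246 to 256 in ischemia, and that of the skeletal muscle list was 2.98 to 6.84 over all samples.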

How the data were processed

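RNA sequencing of 6 rat myocardium samples had been done by the authors from total RNA with a strand-aware library kit. The authors deposited 1 table with raw counts per gene, not normalized, and with FPKM values, that is, fragments per unit of gene length and of sequencing depth; genes without reads had been set to a small constant, read here as 0. STAR and HTSeq are named in the submitters' processing notes, and their versions and the genome build are not given in the sources used here. Without a stated counting rule for shared reads, values of near-identical gene copies are uncertain.

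Genes were tested from a mean FPKM of 0.5 upwards, on the deposited counts, with the quasi-likelihood test of edgeR 4.0.16 (trimmed mean of M-values scaling, no covariates, R 4.3.3), with Benjamini-Hochberg adjustment over all 13964 genes and a threshold of 0.05; the script was tested on simulated data. Isoform ratios of FPKM were compared with a 2-sided exact permutation test in scipy 1.17.1. At 3 samples a group, the p-values measure only the spread between these samples, since the labels do not say how they were taken. The alternatives used limma 3.58.1 and DESeq2 1.42.0, other scalings and filters, a replicate block, removal of the mitochondrial genome and each sample left out. The members and the gene lists were chosen with earlier results of these data known. Members named in the text were all those past the threshold, the most abundant, lowest and highest of each complex, the isoform pairs, Atp5if1 and those without counts; the others were added after their values were seen. Figures were drawn with matplotlib 3.10.9.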

Additional observations from a re-analysis of the deposited data

How the results depend on the processing

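Shares in parentheses are those of all genes tested under the same setting. The number of members past the threshold was 0 under median-ratio scaling (6.77%), total-count scaling (4.24%), quantile normalization (9.04%), no filter (2.85%), a mean FPKM of at least 5 (12.5%), limma with pseudocount 0.1 (7.96%) or 1 (6.2%), removal of the mitochondrial genome (6.74%) and removal of the rows named like a gene placed elsewhere by RefSeq (6.71%). It was 1 with DESeq2 (27.3%). With each sample left out it was 0 to 1, namely 1 without ischemia replicate 1 (18.7%) and 0 without ischemia replicate 2 (4.09%). No gene at all passed when sham replicate 1, 2 or 3 or ischemia replicate 3 was left out (3020 to 3809 genes had an unadjusted p under 0.05), so 0 was the only possible count there. The median log2 fold change lay between -0.48 and -0.25 under the scalings, filters and tools, between -0.58 and -0.11 with each sample left out, and at -0.90 without the pair of atrial-rich sham samples, a fit chosen after seeing the data that keeps only the sham sample with the highest member levels and takes its spread from the ischemia samples. Total-count scaling moved the median of all genes by 0.09, quantile normalization by -0.02.

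The count of members whose groups did not overlap was 4 to 25 with each sample left out, where the share of all genes was 16.1% to 26.8%, 5 with scaled counts (19.1% of all genes) and 3 at a mean FPKM of at least 5 (14.5%). The highest count, 25 without ischemia replicate 1, stood against 25.8% of all genes. With the replicate number as a block (replicate block), 0 members passed, no gene of the table passed, and the median was -0.34. Same-numbered deviations correlated at -0.20 to -0.06, and differently numbered ones at a mean of 0.055. With 3 samples a group these values cannot show whether the numbers pair the samples.

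Differences of isoform ratios lay between -0.11 and 0.37 for Cox4i2, between -0.34 and 0.17 for Cox6a2, between -1.65 and -0.19 for Cox7a1 and between 0.006 and 0.72 for Cox8b with each sample left out. Without Actc1 and Myh6 among the markers, the ratio of ischemia to sham of member FPKM per marker FPKM was 0.760, 0.914, 0.996 and 0.875 for complexes II to V, against 1.03, 1.24, 1.35 and 1.19 with them. Cox4i2 turned to 0.0023 with total-count scaling, 0.036 with limma and 0.033 with limma at pseudocount 1. With each sample left out, 14 further members and Cox4i2 ranged across 0, in most cases only without sham replicate 2: Sdhb from -0.61 to 0.16, Uqcr10 from -0.51 to 0.070, Uqcrc1 from -0.76 to 0.13, Uqcrq from -0.52 to 0.27, Cox4i1 from -0.49 to 0.18, Cox4i2 from -0.34 to 0.28, Cox5a from -0.59 to 0.11, Cox5b from -0.50 to 0.11, Cox6a2 from -0.52 to 0.16, Cox6b1 from -0.52 to 0.00028 on chromosome 1 and from -0.55 to 0.072 on chromosome 2, Cox7c from -0.27 to 0.070, Cox8b from -0.59 to 0.20, Atp5f1e from -0.56 to 0.067 and Atp5mg from -0.50 to 0.025. A limit set by depth was not tested; the lowest counts were those of Cox6b2, 3 to 200, and Cox7a1, 58 to 1041, beside the 3 members without counts. Counting those that changed sign, 40 of 47 members moved by more than 1.5 times without sham replicate 2, and 41 did without ischemia replicate 2. The count was 32 without ischemia replicate 1, 12 without sham replicate 1, 13 without sham replicate 3 and 2 without ischemia replicate 3. The cause of these shifts was not tested.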
